A study of Mus musculus with 22 samples.

Results

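Dnah11 and 8 other axonemal dynein heavy chains (Dnah1, Dnah2, Dnah3, Dnah5, Dnah6, Dnah9, Dnah10 and Dnah12) were followed in the brain of Ts1Cje mice. These 9 genes were taken by name from the 20239 named genes on the array, and all 9 were measured. Dnah11 was chosen by its log2 difference between Ts1Cje and WT in these same arrays, so that difference is described here without a test. No filter on low signals was applied, and every member entered every comparison.

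Affymetrix mouse gene 1.0 ST arrays were hybridised with RNA of the cerebral cortex and hippocampus of 11 female mice aged 8 to 10 weeks. The groups were Ts1Cje cortex (n = 6), WT cortex (n = 5), Ts1Cje hippocampus (n = 6) and WT hippocampus (n = 5), and each animal gave 1 array per region. Ts1Cje mice, a model of Down syndrome, carry an additional copy of a distal segment of chromosome 16 that is joined to the distal end of chromosome 12, where Dnah11 lies. WT animals were littermates, and the Ts1Cje line had been crossed repeatedly to C57Bl/6J. All values are log2 signals, on which a difference of 1 is a doubling. Levels of different genes are not compared, because each gene has its own probes.

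Dynein heavy chains are the motor subunits that make cilia and flagella beat. In motile cilia they form the outer arms, which in mammals contain Dnah5 together with Dnah11 near the cilium's base or Dnah9 towards its tip, and the inner arms, which contain Dnah2, Dnah10 and the single-headed chains Dnah1, Dnah3, Dnah6, Dnah7 and Dnah12. In the adult brain, motile cilia stand on ependymal cells of the ventricle walls, and choroid plexus cells can carry them too, whereas neurons have primary cilia without dynein arms. Loss of Dnah11 in mice randomises the left-right placement of organs, and variants of the human gene cause primary ciliary dyskinesia.

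The promoter sequences are shown because the genes of motile cilia are known targets of RFX factors, which bind the X-box, an inverted repeat. Its arms were searched here as GTTGCC or GTTGCT only. Windows of 300 bases (250 before a transcript start and 50 after) were taken from RefSeq (GRCm38.p6), where 8 of the 9 members matched, all but Dnah3. For Dnah11, Dnah2, Dnah10 and Dnah12 that start is the outer end of the annotated gene, while it lies 30 bases inside the gene for Dnah9, 596 for Dnah6, 1995 for Dnah1 and 48912 for Dnah5. Dnah11 (outer arm) has its window at chr12:118198994-118199293, minus strand, and Dnah9 (outer arm) at chr11:66168502-66168801, minus strand. Dnah6 (single-headed inner arm) has its window at chr6:73221582-73221881, minus strand, and Dnah10 (inner arm) at chr5:124724835-124725134, plus strand. Each is written 5′ to 3′ along its gene, and capitals mark GTTGCC or GTTGCT on the strand shown, or AGCAAC or GGCAAC, the same letters on the other strand.
Dnah11: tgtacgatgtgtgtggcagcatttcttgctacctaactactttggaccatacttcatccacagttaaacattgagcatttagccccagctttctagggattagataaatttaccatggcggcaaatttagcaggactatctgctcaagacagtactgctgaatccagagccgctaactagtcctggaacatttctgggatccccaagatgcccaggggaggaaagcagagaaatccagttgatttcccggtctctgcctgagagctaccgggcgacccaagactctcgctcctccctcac
Dnah9: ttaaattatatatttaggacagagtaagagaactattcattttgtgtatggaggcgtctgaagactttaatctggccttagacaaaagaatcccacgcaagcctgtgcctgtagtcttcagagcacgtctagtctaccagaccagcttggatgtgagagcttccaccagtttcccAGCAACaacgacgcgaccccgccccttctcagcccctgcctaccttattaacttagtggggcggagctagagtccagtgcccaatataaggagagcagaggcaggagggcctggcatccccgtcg
Dnah6: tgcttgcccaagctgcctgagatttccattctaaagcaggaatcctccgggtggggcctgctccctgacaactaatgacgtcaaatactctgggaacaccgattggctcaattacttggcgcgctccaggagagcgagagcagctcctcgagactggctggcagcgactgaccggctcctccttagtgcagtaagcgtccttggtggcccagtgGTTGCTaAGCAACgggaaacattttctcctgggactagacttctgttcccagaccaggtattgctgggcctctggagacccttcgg
Dnah10: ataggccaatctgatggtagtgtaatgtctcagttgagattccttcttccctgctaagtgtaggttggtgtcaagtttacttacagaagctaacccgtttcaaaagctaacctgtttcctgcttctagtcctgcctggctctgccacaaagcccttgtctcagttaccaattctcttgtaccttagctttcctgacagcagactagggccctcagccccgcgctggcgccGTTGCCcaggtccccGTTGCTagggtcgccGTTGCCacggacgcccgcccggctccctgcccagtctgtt

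An arm (GTTGCC or GTTGCT, either strand) was found in 6 of the 8 windows, all but those of Dnah11 and Dnah1, against 25.1% of 32851 windows of the same length. The 6 include the Dnah5 window, far inside its gene. The Dnah11 window held 0 arms of these letters, and other forms of a single arm were not searched. Dnah9 had 1, 75 bases upstream of the start, Dnah6 had 2 and Dnah10 had 3. The Dnah6 arms face each other across a single base, and this pair matches the inverted repeat searched, GTTGC followed after 3 or 4 bases by GCAAC. That repeat was found in 1 of the 8 windows (Dnah6) and in 0.399% of all windows. GTAAACA, a binding motif of forkhead factors such as Foxj1, was found in 0 of the 8 windows and in 3.65% of all windows. These matches describe letters in a window only, and no binding was measured.

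Dnah11 was far brighter in Ts1Cje than in WT animals in both regions. In Ts1Cje cortex its signal was 9.86, 9.71, 9.76, 9.88, 9.81 and 9.88 in animals 61, 63, 64, 87, 94 and 97, and in WT cortex it was 7.53, 6.86, 6.78, 6.92 and 6.62 in animals 60, 62, 65, 95 and 98. The groups did not overlap, and the highest WT value, from animal 60, stood apart from the other 4. In Ts1Cje hippocampus the values were 9.11, 9.31, 9.01, 9.15, 9.08 and 9.16, and in WT hippocampus 6.13, 6.00, 5.79, 6.19 and 5.97, in the same order of animals. The groups were again separate, and animal 60 lay within the WT range there.

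The group means of Dnah11 were 9.82 ± 0.071 in Ts1Cje cortex and 6.94 ± 0.35 in WT cortex (SD, n = 6 and 5), a log2 difference of 2.88 (SE 0.136, 95% interval 2.58 to 3.17), or 7.34-fold. They were 9.14 ± 0.10 in Ts1Cje hippocampus and 6.02 ± 0.16 in WT hippocampus (SD, n = 6 and 5), a log2 difference of 3.12 (SE 0.0765, 95% interval 2.95 to 3.29), or 8.70-fold. The lowest Ts1Cje animal exceeded the highest WT animal by 2.18 in cortex and 2.82 in hippocampus. These differences ranked 1 among all 20239 genes in each region, and the next were 0.87 for H2-DMb1 in cortex and 0.88 for Chkb in hippocampus. As Dnah11 was chosen by this difference, its rank, SEs and 95% intervals are descriptions only, and the intervals take no account of that choice. The WT spread in cortex came largely from animal 60, since without animals 60 and 64 the SD was 0.073 in Ts1Cje cortex and 0.13 in WT cortex.

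**Figure D1:**
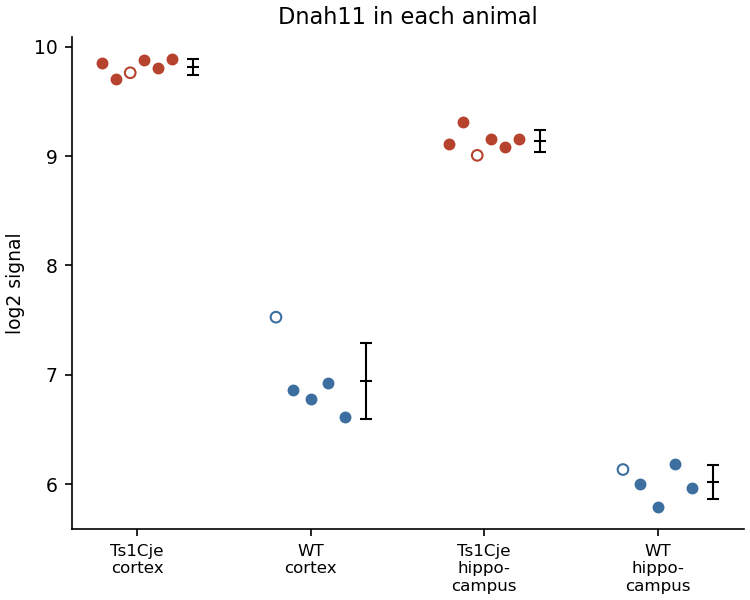
Log2 signal of Dnah11 (vertical axis) in each animal of the 4 groups. Filled and open points are animals, open ones being 60 (WT) and 64 (Ts1Cje), and the bars give the mean ± SD. Ts1Cje animals lie between 9.01 and 9.88 and WT animals between 5.79 and 7.53, with a gap of 2.18 in cortex and 2.82 in hippocampus.

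The size of the Dnah11 difference was then compared between regions, a contrast that did not choose the gene. It was larger in hippocampus by 0.24 (SE 0.159, 95% interval -0.087 to 0.58), and this did not pass the test (limma interaction term, Benjamini-Hochberg adjusted p = 1.00, unadjusted p = 0.14). None of the 20239 genes passed it, a percentage called of 0, and 260 had an unadjusted p under 0.05. With animals 60 and 64 left out the difference was 0.14.

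None of the other 8 chains was called in either genotype comparison. In cortex their log2 differences ran from -0.089 (Dnah1) to 0.0092 (Dnah12), with a median of -0.015 beside -0.0034 for all genes. In hippocampus they ran from -0.12 (Dnah6) to 0.10 (Dnah10), with a median of 0.013 beside -0.0064 for all genes. By limma with adjustment over all genes, 0 of the 8 were called in cortex and 0 of the 8 in hippocampus. Of all genes, 0.00494% were called in cortex (1 gene, Dnah11, which was chosen by this difference) and 0.114% in hippocampus (23 genes). Single arrays moved these values: without animal 60 the cortex difference was 0.21 for Dnah12 and 0.075 for Dnah10 (-0.066 with all animals), and without animal 64 it was -0.18 for Dnah1, none of them called. In hippocampus, values with 1 animal left out lay between -0.14 (Dnah6) and 0.12 (Dnah10). The genotypes overlapped for all 8 in both regions, whereas 0.306% of all genes in cortex and 0.637% in hippocampus had groups that did not overlap. An unadjusted p under 0.05 was reached by 263 of the 20239 genes in cortex and 750 in hippocampus, and by none of the 8 in either. With shares of all genes this small, 0 of 8 does not set these chains apart from other genes. Their 95% intervals for the measured signal lay within -0.41 to 0.43 in cortex (both Dnah12), and -0.29 (Dnah6) to 0.27 (Dnah10) in hippocampus. Dnah3, Dnah6, Dnah10 and Dnah12 were among the 6747 dimmest genes, and signal over background was not used. For such dim chains these intervals are no bound on a change in RNA. Dnah11 exceeded the mean of the 8 by 2.90 in cortex and 3.13 in hippocampus.

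**Figure D2:**
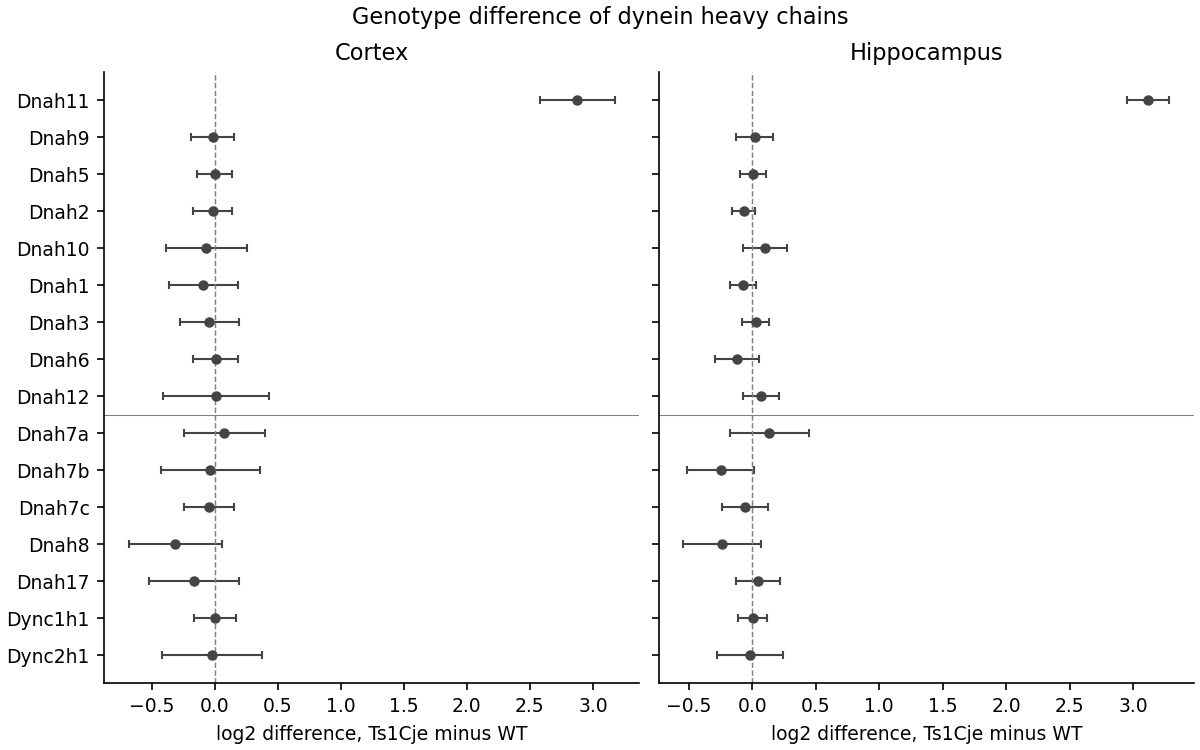
Log2 difference between Ts1Cje and WT (horizontal axis) of each measured dynein heavy chain, in cortex and hippocampus. Points are the fitted differences and bars their 95% intervals, and the line separates the 9 listed chains from 7 others. Dnah11, chosen by this difference, lies at 2.88 and 3.12, and all 15 other intervals include 0.

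Of the outer arm chains, Dnah9 had values of 6.81 to 6.91 in Ts1Cje cortex (median 6.83, n = 6), against 6.83, 6.76, 6.73, 6.83 and, in animal 60, 7.15 in WT cortex. In hippocampus it had 7.42 to 7.69 in Ts1Cje animals (median 7.51, n = 6) and 7.36 to 7.68 in WT animals (median 7.52, n = 5). The groups overlapped throughout, and the differences were -0.014 (SE 0.077) in cortex and 0.018 (SE 0.066) in hippocampus. Dnah5, the partner of both Dnah11 and Dnah9, averaged 6.88 ± 0.073 in Ts1Cje cortex and 6.88 ± 0.091 in WT cortex (SD, n = 6 and 5). Its means were 6.17 ± 0.061 in Ts1Cje hippocampus and 6.16 ± 0.062 in WT hippocampus (SD, n = 6 and 5). Its interval in hippocampus, -0.098 to 0.11, was among the narrowest of the family.

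Dnah2 and Dnah10 form the double-headed inner arm. Dnah2 averaged 6.48 ± 0.090 in Ts1Cje cortex and 6.50 ± 0.11 in WT cortex, and 6.25 ± 0.043 in Ts1Cje hippocampus and 6.32 ± 0.034 in WT hippocampus (SD, n = 6 and 5). Its hippocampal difference of -0.067 (SE 0.0412) did not pass the test, and 3 of the 6 Ts1Cje animals lay below all WT animals. Dnah10 lay at 5.43 to 5.45 in 5 of the 6 Ts1Cje hippocampi and at 5.85 in animal 64, against 5.28 to 5.49 in WT hippocampi. Its difference was 0.10 (SE 0.0798), and without animals 60 and 64 its means were 5.45 in Ts1Cje hippocampus and 5.40 in WT hippocampus. In cortex Dnah10 was likewise highest in animals 64 (6.38, Ts1Cje) and 60 (6.60, WT), with the other 9 animals between 5.84 and 5.93.

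Among the single-headed inner arm chains, Dnah6 had 5.73 to 6.08 in Ts1Cje hippocampus (median 6.04, n = 6) and 6.02 to 6.35 in WT hippocampus (median 6.04, n = 5). The medians were alike at this rounding, while the means differed by -0.12 (SE 0.0793). Animal 64 had the lowest Ts1Cje value and animal 62 the highest WT value. Dnah1 had 5.77 to 5.98 in Ts1Cje hippocampus and 5.88 to 6.01 in WT hippocampus, and 5 of the 6 Ts1Cje animals lay below every WT animal. The share of all genes with such a count was not taken, so the count is a description of Dnah1 only. The Dnah1 difference of -0.072 (SE 0.0480) had an interval of -0.18 to 0.033, which includes 0. Dnah12 had 4.34 to 4.90 in Ts1Cje cortex and 4.32 to 5.48 in WT cortex, where the highest value came from animal 60. Dnah3 averaged 5.21 ± 0.14 in Ts1Cje cortex and 5.26 ± 0.22 in WT cortex, and 4.73 ± 0.074 in Ts1Cje hippocampus and 4.70 ± 0.045 in WT hippocampus (SD, n = 6 and 5).

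**Figure D3:**
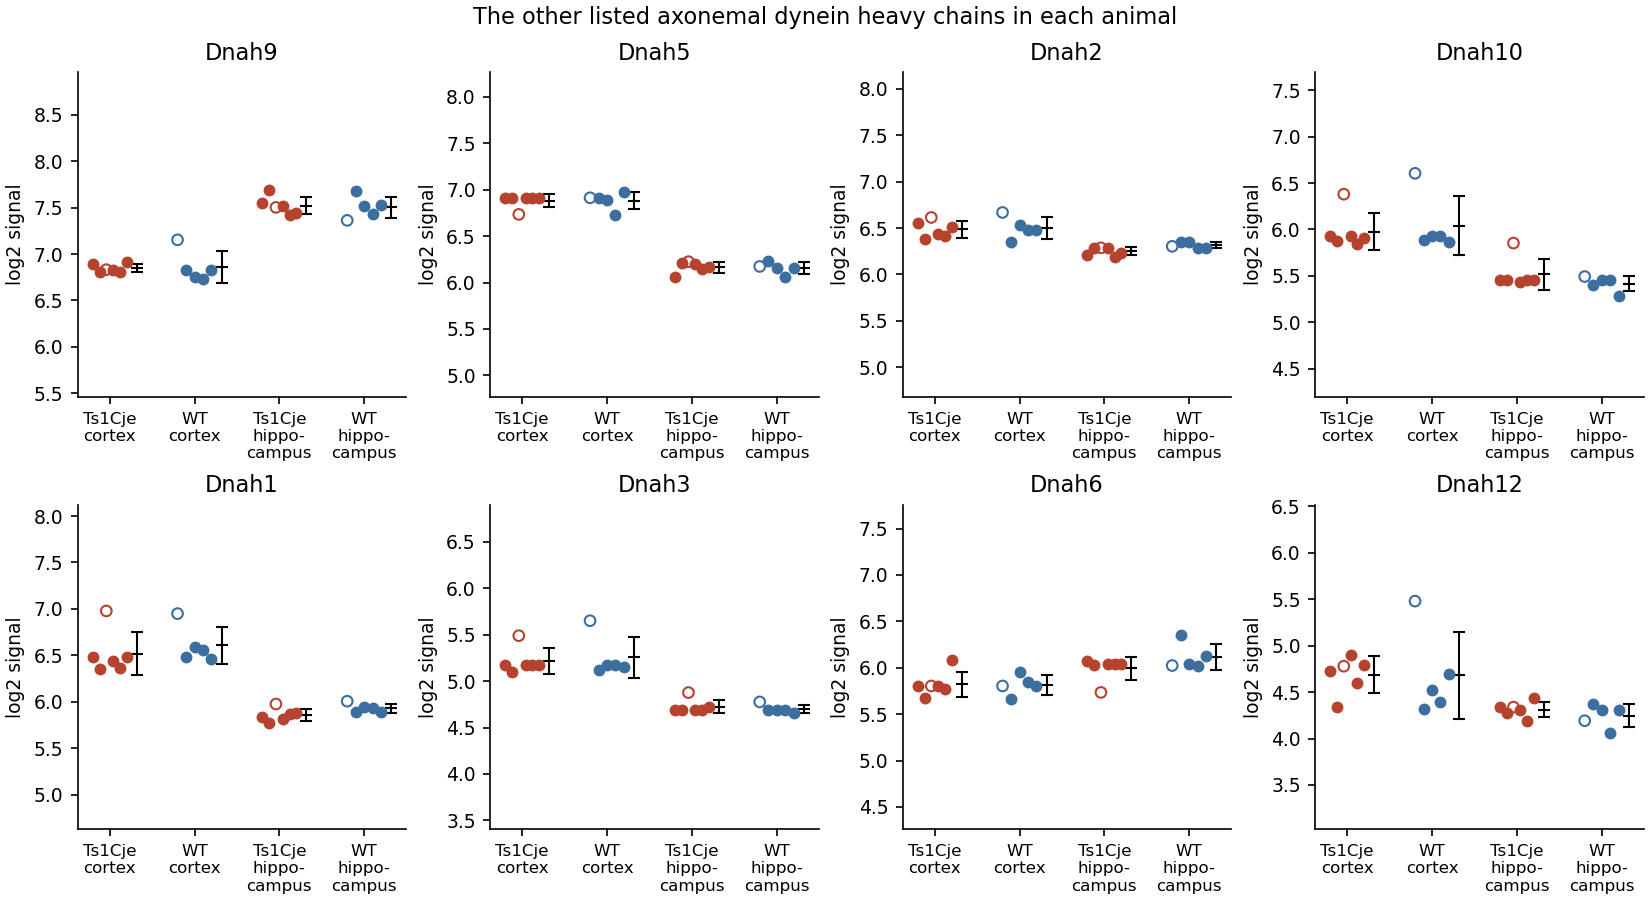
Log2 signal (vertical axis, spanning the same range in each panel) of the 8 other listed chains in each animal of the 4 groups. Filled and open points are animals, open ones being 60 (WT) and 64 (Ts1Cje), and bars give the mean ± SD. Ts1Cje and WT points overlap for every chain in both regions.

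Several of these chains had exactly equal values on several arrays. Dnah3 was listed at 5.17 on 6 of the 11 cortex arrays and at 4.69 on 7 of the 11 hippocampus arrays. Dnah5 was listed at 6.91 on 6 cortex arrays, and Dnah10 at 5.45 on 6 hippocampus arrays. A value shared by 6 or more arrays occurred in 0.509% of all genes in cortex and 1.21% in hippocampus. Dnah11 had a different value on every array of a region.

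Of the 8 other dynein heavy chains sought, 7 were measured (Dnah14 was not), and 0 of the 7 were called in either region. Of all genes, 0.00494% were called in cortex and 0.114% in hippocampus, so 0 of 7 does not set them apart. Above 0 were 2 of the 7 in cortex and 3 in hippocampus, the highest being Dnah7a (0.077 and 0.13). Dnah8, a sperm-tail relative of Dnah5, differed by -0.31 (SE 0.169) in cortex and -0.24 (SE 0.141) in hippocampus. Dnah7b, an inner arm chain, differed by -0.25 (SE 0.120) in hippocampus, and Dnah17, a sperm-tail outer arm chain, by -0.16 (SE 0.162) in cortex. The Dnah17 difference rested on WT animal 60 (6.60), without which it was 0.0060. Dnah7a, Dnah7b and Dnah7c are close copies of one another, and how well the probes separate them was not tested. Dync1h1, the cytoplasmic dynein motor, differed by 0.0012 in cortex and 0.0027 in hippocampus, and Dync2h1, the motor of transport inside cilia, by -0.023 and -0.019.

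The remaining parts of the dynein machinery were compared from lists of genes. With 0.00494% of all genes called in cortex and 0.114% in hippocampus, 0 called in such short lists does not set them apart. Of the 8 measured intermediate and light chains of the arms, 0 were called in either region, with medians of -0.044 in cortex and -0.058 in hippocampus. The 2 with the lowest p were Dnal4 (0.093) and Nme8 (-0.18) in cortex, and Dnaic2 (-0.16) and Nme9 (0.13) in hippocampus. Of the 3 measured docking and attachment genes 0 were called. The lowest p went to Ccdc63 (-0.15) and Ccdc103 (0.025) in cortex, and to Daw1 (0.11) and Ccdc103 (-0.049) in hippocampus. Of the 14 genes of nexin links, the ruler and radial spokes, and of the 9 central pair genes, 0 were called in either region. Rsph3a (-0.26, SE 0.103) and Rsph4a (-0.31, SE 0.152), both radial spoke proteins, had the lowest p of the spoke list in hippocampus. In cortex those were Rsph9 (0.095) and Rsph1 (-0.12). Of the central pair they were Spef2 (0.10) and Spag17 (0.069) in cortex, and Spag16 (-0.13) and Spag17 (0.062) in hippocampus. Of the 9 transcription factors of motile cilia, 0 were called, and 4 were above 0 in cortex and 2 in hippocampus. Foxj1, the master regulator of motile ciliogenesis, differed by -0.13 in hippocampus (median of the list -0.044), and Gmnc by -0.091. In cortex Trp73 differed by -0.12 and Gmnc by -0.052 (median of the list -0.0039).

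Cfap298, an assembly factor of dynein arms, lies within the additional chromosome 16 segment. It was the 1 called gene among the 12 measured assembly factors, in hippocampus, where 0.114% of all genes were called. Its signal was 8.50 to 8.67 in Ts1Cje hippocampus and 8.09 to 8.31 in WT hippocampus, with no overlap (groups of 0.637% of all genes did not overlap there). Its signal rose by 0.36 (SE 0.0582, limma adjusted p = 0.0462). The call was lost when any 1 animal other than 64 was left out (adjusted p 0.0798 to 0.190) and in a single fit on all arrays (adjusted p = 0.555). In cortex it had 8.69 to 9.33 in Ts1Cje animals and 8.43 to 8.90 in WT animals, overlapping through animal 64, and the difference of 0.41 (SE 0.121) did not pass the test. It passed without animals 60 and 64 (0.42, adjusted p = 0.0145) and with array weights (adjusted p = 0.00248).

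**Figure D4:**
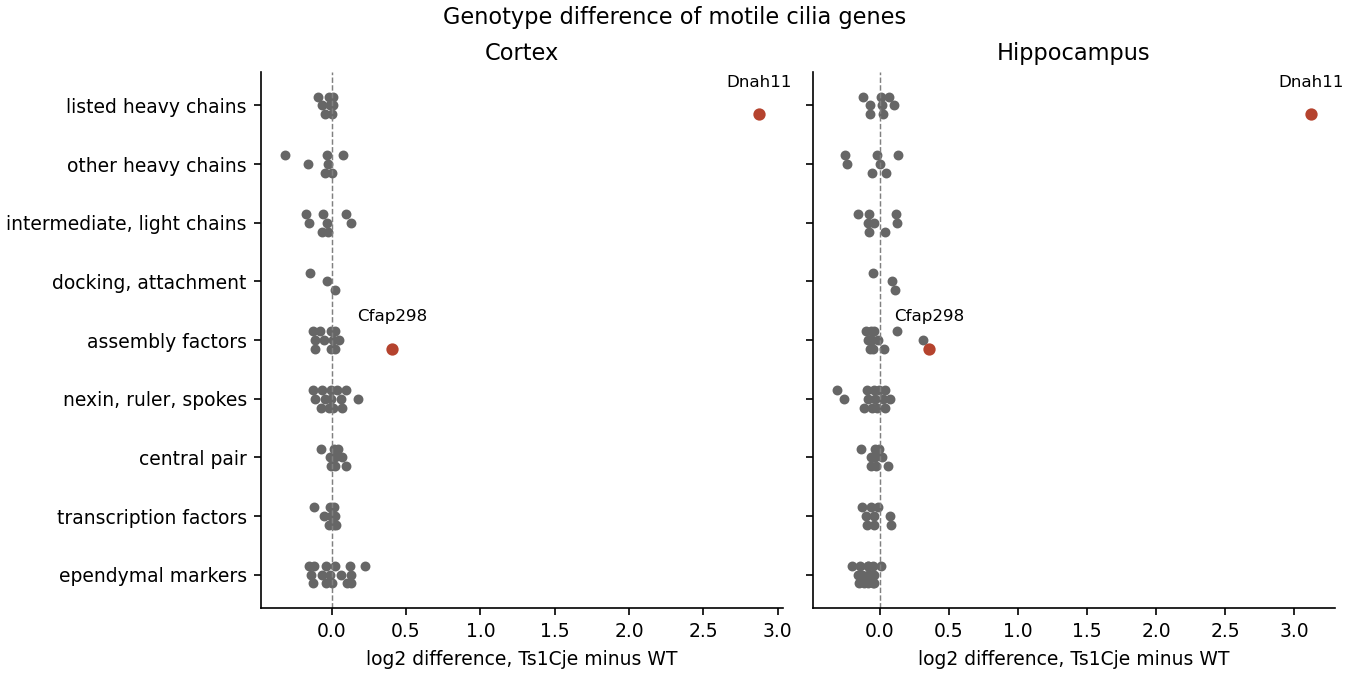
Log2 difference between Ts1Cje and WT (horizontal axis) of the measured genes of 9 lists of motile cilia genes, in cortex and hippocampus. Each point is a gene, and red marks Dnah11 and the assembly factor Cfap298. Dnah11 lies at 2.88 and 3.12 and Cfap298 at 0.41 and 0.36.

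Markers of ependymal cells were compared because these cells carry the motile cilia. In tissue pieces, fewer cells of a type and less RNA per cell cannot be told apart. In hippocampus 1 of the 16 measured markers was above 0 (Pltp), the median difference was -0.086 and 0 were called. The mean over the 16 markers was 6.58 to 6.75 in Ts1Cje animals and 6.71 to 6.80 in WT animals, overlapping ranges. In cortex 8 of the 16 were above 0 with a median of -0.0042, and the animal means were 6.66 to 6.76 in Ts1Cje and 6.59 to 6.80 in WT. Of 15 choroid plexus markers 4 were above 0 in hippocampus (median -0.21) and 6 in cortex (median -0.074), with 0 called. Among all 20239 genes, 9362 were above 0 in hippocampus and 9818 in cortex, and 0.114% and 0.00494% were called. The part of these cells in the values of the heavy chains was not tested.

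Hippocampus and cortex were compared within each genotype after each array was centred on its median, because the array medians differed by region. Dnah9, Dnah6 and Dnah2 were higher in hippocampus in both genotypes. Called chains numbered 3 of 9 in Ts1Cje, all higher, where 29.4% of all genes were called (15.1% higher), and 3 of 9 in WT, all higher, where 25.4% were called (11.8% higher). Different RNA extraction kits were used for the 2 regions, so region and kit cannot be told apart.

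Dnah9 had centred values of 0.51 to 0.76 in Ts1Cje hippocampus and -0.75 to -0.67 in Ts1Cje cortex, a difference of 1.32 (SE 0.0641, limma adjusted p = 1.24e-12). In WT it had 0.42 to 0.74 in hippocampus and -0.81 to -0.45 in cortex, a difference of 1.26 (SE 0.0702, adjusted p = 1.42e-11). It was higher in hippocampus in 11 of 11 animals, and no ranges overlapped. Dnah6 differed by 0.81 (SE 0.0751, adjusted p = 2.65e-08) in Ts1Cje and 0.92 (SE 0.0823, adjusted p = 2.11e-08) in WT, higher in hippocampus in 11 of 11 animals. Dnah2 differed by 0.41 (SE 0.0483, adjusted p = 1.06e-06) in Ts1Cje and 0.43 (SE 0.0529, adjusted p = 1.81e-06) in WT, again in 11 of 11 animals. The sizes depend on the centring. On the deposited values Dnah9 differed by 0.67 in Ts1Cje and 0.64 in WT, and Dnah6 by 0.17 (adjusted p = 0.0391) in Ts1Cje and 0.30 (adjusted p = 0.00236) in WT. Dnah2 was lower in hippocampus on those values (-0.24 in Ts1Cje and -0.18 in WT).

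Dnah11 was not called between regions in either genotype. In Ts1Cje its centred values were 2.06 to 2.39 in hippocampus and 2.15 to 2.34 in cortex, a difference of -0.037 (SE 0.104, limma adjusted p = 0.830). In WT they were -1.15 to -0.75 in hippocampus and -0.94 to -0.072 in cortex, a difference of -0.31 (SE 0.114, adjusted p = 0.0530), with all 5 animals lower in hippocampus. The WT difference passed the test once each animal was treated as a replicate block, random (adjusted p = 0.00811) or fixed (0.0172). Without animals 60 and 64 it was -0.20 (adjusted p = 0.0474). The genotype difference of these region differences is the interaction given above, which did not pass.

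The remaining listed chains were not called between regions. Dnah3, Dnah10 and Dnah12 differed by 0.15, 0.18 and 0.27 in Ts1Cje and by 0.062, -0.0094 and 0.18 in WT, and Dnah1 and Dnah5 by -0.018 and -0.077 in Ts1Cje and by -0.059 and -0.11 in WT. With the animal as a block Dnah3 passed in Ts1Cje (adjusted p = 0.0292 random, 0.0412 fixed). Without animals 60 and 64, 7 of the 9 listed chains were called in each genotype, and the share of all genes called was then 56.3% in Ts1Cje and 49.3% in WT. Among the 7 other heavy chains, Dnah7b was higher in hippocampus by 0.41 in Ts1Cje and 0.61 in WT, while Dnah7c differed by -0.23 and -0.25 and Dync1h1 by -0.23 and -0.26, in Ts1Cje and WT, all called (14.3% of all genes were called lower in Ts1Cje and 13.6% in WT). These calls depended on the processing. Dnah7b was not called in 12 of 21 alternatives in Ts1Cje (adjusted p 0.0507 to 0.157) and in 2 of 21 in WT, and was below 0 on the deposited values in both genotypes. Dnah7c was not called in 5 of 21 in Ts1Cje and 10 of 21 in WT, and Dync1h1 in 0 of 22 in Ts1Cje and 2 of 22 in WT.

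**Figure D5:**
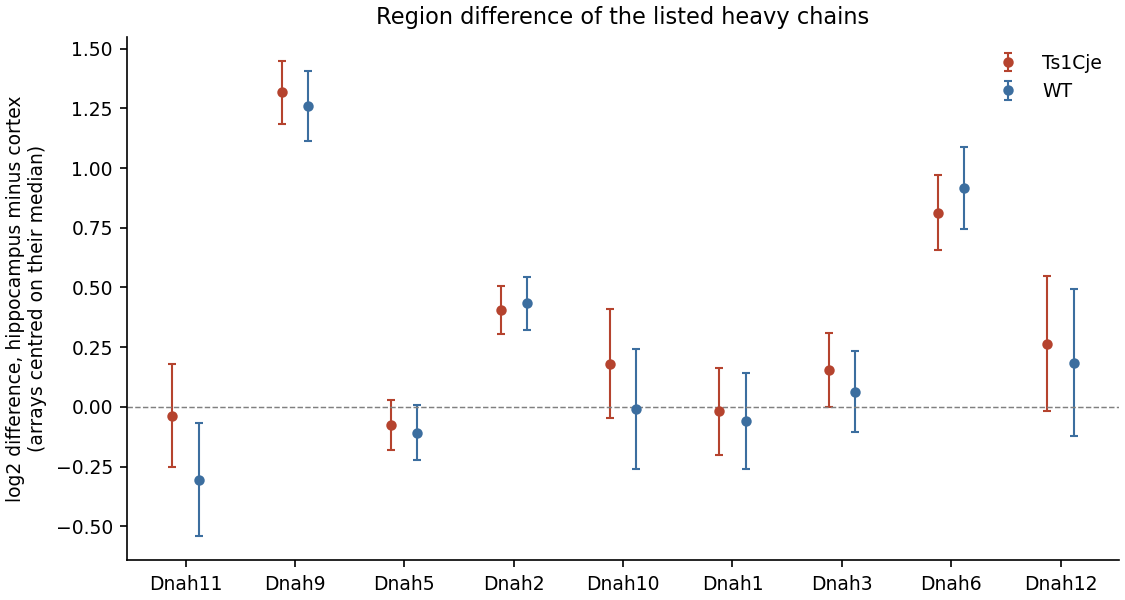
Log2 difference between hippocampus and cortex (vertical axis, arrays centred on their median) of the 9 listed chains, in Ts1Cje and WT animals. Points are fitted differences and bars their 95% intervals. Dnah9 (1.32 and 1.26), Dnah6 (0.81 and 0.92) and Dnah2 (0.41 and 0.43) lie above 0 in both genotypes.

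Cell markers moved with the regions. Of the 16 ependymal markers 16 were higher in hippocampus in both genotypes (13 called in Ts1Cje and 14 in WT, medians 0.55 and 0.64). Of the 15 choroid plexus markers 15 were called higher in both (medians 1.98 and 2.09), and so were 7 of 7 markers of hippocampal neurons. Of all genes, 15.1% were called higher in Ts1Cje and 11.8% in WT. Of 6 markers of cortical neurons 5 were lower in hippocampus, the exception being Fezf2. The mean deposited signal of the choroid plexus list was 7.89 to 8.61 in Ts1Cje hippocampus against 6.42 to 7.68 in Ts1Cje cortex, and 8.06 to 8.51 in WT hippocampus against 6.48 to 7.58 in WT cortex. Their part in the region differences of Dnah9, Dnah6 and Dnah2 was not tested.

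In RefSeq gene order on chromosome 12, Dnah11 stands between Cdca7l, whose end it overlaps by 731 bases, and Sp4. Cdca7l differed by 0.19 (SE 0.111) in cortex and 0.097 (SE 0.0975) in hippocampus. Rapgef5, Sp8, Abcb5 and Macc1, also of the distal list, differed by -0.018, -0.25, -0.14 and -0.096 in cortex. In hippocampus they differed by -0.032, -0.0059, -0.099 and 0.14, and none of them was called in either region. Tmem196, a membrane protein, fell by 0.41 (SE 0.0512, limma adjusted p = 0.0209) in hippocampus. Itgb8, an integrin subunit that activates TGF-beta, fell by 0.81 (SE 0.121, adjusted p = 0.0375) there. Tmem196 and Itgb8 were the only 2 genes called lower in hippocampus, 0.00988% of all genes. The Tmem196 call was lost when any 1 animal other than 63 or 64 was left out (adjusted p 0.0505 to 0.0964), and the Itgb8 call when any other than 64 was left out (0.0655 to 0.151). In cortex Tmem196 differed by -0.67 and Itgb8 by -0.81, and Sp4, a transcription factor, by -0.37 in hippocampus and -0.42 in cortex, none of them called. In cortex Tmem196 passed in 9 of 21 alternatives, among them without animal 60 (adjusted p = 0.0192), without animal 64 (0.0337) and without both (0.000578). Itgb8 passed there in 4 of 21, among them without both animals (adjusted p = 0.000152). Sp4 passed with array weights in hippocampus (adjusted p = 0.0115) and cortex (0.0144), and in hippocampus without both animals (0.0270).

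The genes whose signal followed Dnah11 most closely were ranked by Pearson's r over the 11 animals of a region, averaged over both regions. As Dnah11 falls into 2 separate levels by genotype, such an r mainly restates the split between genotypes and carries no test. The highest were Dyrk1a (0.97), Gart (0.94), Synj1 (0.93), Rcan1 (0.92) and Scaf4 (0.92), all on chromosome 16. The lowest were Tmem196 (-0.95), Itgb8 (-0.87), Rfx5 (-0.84), Dcaf7 (-0.84) and Grin2c (-0.79). The 8 other listed chains had values from -0.35 (Dnah1 and Dnah2) to 0.21 (Dnah12), and Cfap298 had 0.80. After removal of the genotype means the highest were Vmn1r188 (0.84), Olfr1378 (0.79), Psmc3ip (0.78), Oas1h (0.76) and Vmn1r217 (0.76). In cortex these deviations of Dnah11 were largest in animal 60. Dnah9 then had r of 0.85 in cortex and -0.017 in hippocampus.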

How the data were processed

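RNA of 11 animals was hybridised to 22 Affymetrix mouse gene 1.0 ST arrays, 1 per region. The deposited values are log2 signals that the authors made with RMA, per the submitters' processing notes, holding 21225 features per array. RMA corrects background, normalizes arrays and summarises probes, and its version and probe definition are not stated, nor whether the regions were normalized jointly. Per the labels' protocols, cortex and hippocampus RNA was extracted with different kits and had an integrity number above 9. Arrays have no read depth, and their number limits the precision.

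Features were named through Entrez numbers and the RefSeq gene table (GRCm38.p6), which gave 20239 named genes; the 986 features without a symbol were left out, and 0 carried several. That table was used for names, gene order and the overlap of Dnah11 with its neighbour. The title of 2 arrays names WT animal 60 where their description names 61, and the title was used. R 4.3.3 with limma 3.58.1 was used for the fits (lmFit, then eBayes with two-sided tests). P values were adjusted by Benjamini-Hochberg over the 20239 genes, and a gene was called below 0.05. The genotypes were set against each other in the 11 arrays of each region. The interaction and the region differences (arrays centred on their median) were fitted on all 22 arrays in 4 groups. On simulated data with 20239 genes the fits recovered 100% of log2 changes of 2 and 3 in both genotype comparisons, 90% of changes of 1 in hippocampus and 82% in cortex, and 74% of changes of 0.5 in hippocampus and 40% in cortex. For the interaction, 82% of changes of 1 and 42% of changes of 0.5 were recovered. In each comparison 50 genes were changed at each size, with independent normal noise and no link between the arrays of an animal. The genes changed for the interaction were also changed in Ts1Cje hippocampus. Fewer genes were called on the real arrays (1 in cortex and 23 in hippocampus), which makes the Benjamini-Hochberg cut-off stricter there. These percentages need not hold for the real arrays and may be too high. As more genes were changed in hippocampus than in cortex, the recovery of the 2 regions cannot be compared.

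Named genes were the 9 members, the other measured dynein heavy chains, and from each other list the called members or otherwise up to 2 with the lowest p per region, besides Cfap298, Itgb8, Tmem196, Sp4 and the genes most like Dnah11. Cdca7l, Rapgef5, Sp8, Abcb5, Macc1, Pltp, Fezf2, H2-DMb1 and Chkb were named outside this rule, after their values were seen. Of 140 list genes sought 120 were measured. The members, lists and alternatives were chosen with earlier results of these data known.

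Both arrays of an animal share its number in the labels, which pairs the regions. After removal of group means their deviations had a median r of 0.265 across genes (0.0523 to 0.761), 7 of 11 animals matched their own partner best, and the consensus correlation with a random block was 0.436. Arrays of animals 60 and 64 stood apart in both regions, with SDs over features of 1.86 and 1.95 in cortex against 2.17 to 2.22 for the other 9 arrays, so results are also given without them.

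The alternatives were a trend and robust prior, array weights, quantile normalization, median centring, leaving out the 6747 dimmest genes, testing every feature, a threshold of 0.1, 1 fit to all 22 arrays, the animal-number series as a covariate, replicate blocks, the values as deposited for the regions, and leaving out animals. Promoter windows came from a separate RefSeq sequence table (GRCm38.p6).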

Additional observations from a re-analysis of the deposited data

Results flagged for a closer look

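Values were looked at again where the highest or lowest animal of a group stood clear of the rest of its group (Dixon's criterion at 95%). Of 68 gene and group combinations, 22 had such an animal, where chance alone marks about 1 in 20. Animals 60 and 64, whose arrays stand apart in both regions, gave 19 of the 22, and what their arrays contribute was not tested. In Ts1Cje animal 64, the cortex value was the highest of its group for Dnah1 (6.98), Dnah3 (5.49) and Dnah10 (6.38), and the lowest for Dnah5 (6.73), Dnah7b (4.87), Dync2h1 (7.57) and Cfap298 (8.69). The hippocampus value of that animal was the highest for Dnah3 (4.88), Dnah10 (5.85) and Dnah17 (5.41), and the lowest for Dnah6 (5.73) and Dync2h1 (7.13). In WT animal 60, the cortex value was the highest for Dnah1 (6.95), Dnah3 (5.65), Dnah9 (7.15), Dnah10 (6.60) and Dnah17 (6.60), and the lowest for Dync1h1 (11.4) and Dync2h1 (7.71).

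The other 3 marked values came from animals whose arrays did not stand apart. Dnah6 was 6.08 in Ts1Cje cortex of animal 97, where the other 5 animals lay between 5.67 and 5.80. Dnah7a was 3.98 in WT hippocampus of animal 65, against 4.31 to 4.44 in the other 4. Dnah8 was 5.30 in WT cortex of animal 95, against 6.01 to 6.22 in the other 4.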

How the results depend on the processing

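The Dnah11 genotype difference stayed between 2.79 and 3.03 in cortex and between 3.06 and 3.18 in hippocampus under the 21 alternatives run for each, and 0 of the 8 other listed chains were called under any of them, though only 4 of the 8 remained to be tested without the 6747 dimmest genes (Dnah3, Dnah6, Dnah10 and Dnah12 were among those). The interaction of Dnah11 stayed uncalled under its 22 alternatives (0.13 to 0.34, adjusted p 0.862 to 1.00), replicate blocks included (0.24, adjusted p 0.941 random and 0.909 fixed). The count of all genes called was less stable. In cortex it was 1, and became 3 with a trend and robust prior, without the 6747 dimmest genes or at adjusted p under 0.1, 13 with quantile normalization, 23 in a single fit on all arrays, 32 without animals 60 and 64, and 50 with array weights. In hippocampus it was 23, and became 54 with array weights and 37 without animals 60 and 64. Leaving out 1 animal gave 1 to 7 genes in cortex and 1 to 35 in hippocampus.

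Region results moved too. All genes called in WT numbered 5133, and 11109 with array weights, 18453 on values as deposited, 7714 with a random replicate block and 9982 without animals 60 and 64. In Ts1Cje they numbered 5950, and 11405, 18229 and 11398 with array weights, as deposited and without those animals. Listed chains called were 3 of 9 in each genotype, and 7 with array weights, 5 with quantile normalization, 9 as deposited and 7 without those animals, in both genotypes, while the share of all genes called also grew, to 56.4%, 34.8%, 90.1% and 56.3% in Ts1Cje and 54.9%, 32%, 91.2% and 49.3% in WT. Without the dimmest genes 5 of the 9 were tested, and 2 were called in Ts1Cje and 3 in WT. Leaving out 1 animal gave 3 to 5 in Ts1Cje and 3 to 4 in WT. The WT difference of Dnah11 (-0.31) passed with a trend and robust prior, without the dimmest genes, at adjusted p under 0.1 and with either replicate block (-0.31 in each), with array weights (-0.24), quantile normalization (-0.33), as deposited (-0.92) and without animals 60 and 64 (-0.20). It ranged from -0.38 to -0.20 with 1 animal left out, and passed without animal 64 (adjusted p 0.0473) or 98 (0.0321). In Ts1Cje it passed only as deposited (-0.68). On deposited values the sign turned for Dnah2 (-0.24 in Ts1Cje, -0.18 in WT), Dnah3 (-0.49, -0.56), Dnah12 (-0.38, -0.43) and Dnah7b (-0.23, -0.013) in both genotypes and for Dnah10 in Ts1Cje (-0.46). In WT, Dnah10 turned positive with array weights (0.10) and without animals 60 and 64 (0.10). With 1 animal left out, Dnah10 reached 0.10 in WT and Dnah1 reached 0.055 in Ts1Cje, neither of them called. The highest value of Dnah11 in Ts1Cje over the alternatives was 0.0072, not called either. Among the 9 listed chains, the replicate block changed only the region calls of Dnah11 in WT and Dnah3 in Ts1Cje. The count of all genes called between regions rose with either block. In WT it was 7714 (random) and 7517 (fixed) against 5133, and in Ts1Cje 8662 and 8559 against 5950. The cause of these changes was not tested, except that deposited values carry the difference in array medians (7.53 to 7.62 in cortex, 6.91 to 6.95 in hippocampus). Signal over background was not used here, so no bound is given for dim chains.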

Other observations

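Dnah8, a heavy chain of sperm tails that lies on chromosome 17, had low values in the same 3 animals in both regions, a pattern noticed after its values were seen. In cortex it had 5.40 and 5.34 in Ts1Cje animals 94 and 97 and 5.30 in WT animal 95, while the other 8 animals lay between 5.71 and 6.22. In hippocampus it had 5.05 and 4.86 in Ts1Cje animals 94 and 97 and 4.94 in WT animal 95, while the others lay between 5.21 and 5.75. The low values occurred in both genotypes.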
